A study of Mus musculus with 7 samples.

Results

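The 8 erythroid transcription factor genes Gata1, Zfpm1, Tal1, Lmo2, Ldb1, Klf1, Gfi1b and Nfe2 were followed across 7 RNA-seq libraries of sorted mouse bone marrow cells. They were chosen by name for their known role in red cell formation, but with earlier results of these data known. All 8 were found among the 50435 rows of the deposited table. Each of the 8 reached the mean of at least 1 RPM (reads per 1000000 reads of a library) that a gene needed to be tested.

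All mice were irradiated wild-type recipients of Zbtb46dtr marrow, in which the receptor for diphtheria toxin is placed under the classical dendritic cell gene Zbtb46. After 8 weeks, 4 samples came from mice injected with 100 µl of PBS alone (PBS 1 to 4) and 3 from mice injected with 200 ng of diphtheria toxin in the same volume (DT 1 to 3). Marrow was taken 1 day later. Zbtb46 is known to be active in committed erythroid progenitors and endothelium as well as in dendritic cells, which limits the model, although the host's own cells lack the receptor. The samples are named biological replicates, but whether each came from 1 mouse is not given in the sources used here. Age is likewise not given.

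Cells with CD31 and without Sca1 were sorted after cells bearing the lineage antigens CD45, Ter119, Gr1 and CD11b were gated out, and the labels name the result sinusoidal endothelium. Ter119 marks maturing red cell precursors, so the gate itself was set against them. Against that label, the 12 endothelial genes examined summed to only 1.45 to 9.35 RPM in PBS and 10.2 to 18.7 RPM in DT. The 13 neutrophil genes summed to 2037 to 4509 RPM in PBS and 60403 to 64900 RPM in DT. The values below are therefore given for whole samples and not for a cell type. In such bulk samples, fewer cells of a type and less RNA per cell cannot be told apart. The libraries held an estimated 33200000 to 51200000 reads, and the 56 values of the 8 genes stood for 25 to 10063 reads each.

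Red cell precursors are built by a small group of DNA-binding proteins that work in shared complexes. GATA1 binds the letters GATA and recruits its cofactor FOG1, the product of Zfpm1. TAL1 binds E-box letters and is joined to GATA1 through the bridging proteins LMO2 and LDB1. KLF1 binds CACCC letters and switches on adult globin and membrane genes. GFI1B is a repressor needed in red cell and platelet precursors. NFE2 pairs with small MAF proteins, acts in globin control and platelet release, and is also expressed in granulocytes and mast cells. Most of the 8 are shared with megakaryocytes, and TAL1, LMO2 and LDB1 also act in endothelium and blood stem cells.

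Of the 8 genes, 6 fell after DT, 1 rose and 1 did not pass the test. Klf1, Gfi1b, Gata1, Tal1, Zfpm1 and Ldb1 were lower, Nfe2 was higher, and Lmo2 missed the threshold. Over all 14100 genes tested, 18.6% were lower and 13.4% higher at an adjusted p under 0.05 (limma on log2(RPM + 1), Benjamini-Hochberg over all genes), 2622 lower and 1894 higher. With median-ratio scaling, which moved the median of all genes by more than 0.1, the split was 1268 lower and 2412 higher, and the calls of the 8 genes did not change. The median log2 difference was -2.09 for the 8 genes and -0.23 for all genes tested. The PBS and DT values did not overlap in 4 of the 8 genes that were lower in DT (Gata1, Gfi1b, Zfpm1, Ldb1) and in Nfe2, which was higher. The same held for 24.7% of all tested genes with DT lower and 16.1% with DT higher. Without the low-value filter, or with voom on estimated reads, 3 of the 8 genes were called lower (Gfi1b, Zfpm1 and Ldb1), and Nfe2 was called higher in each.

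**Figure D1:**
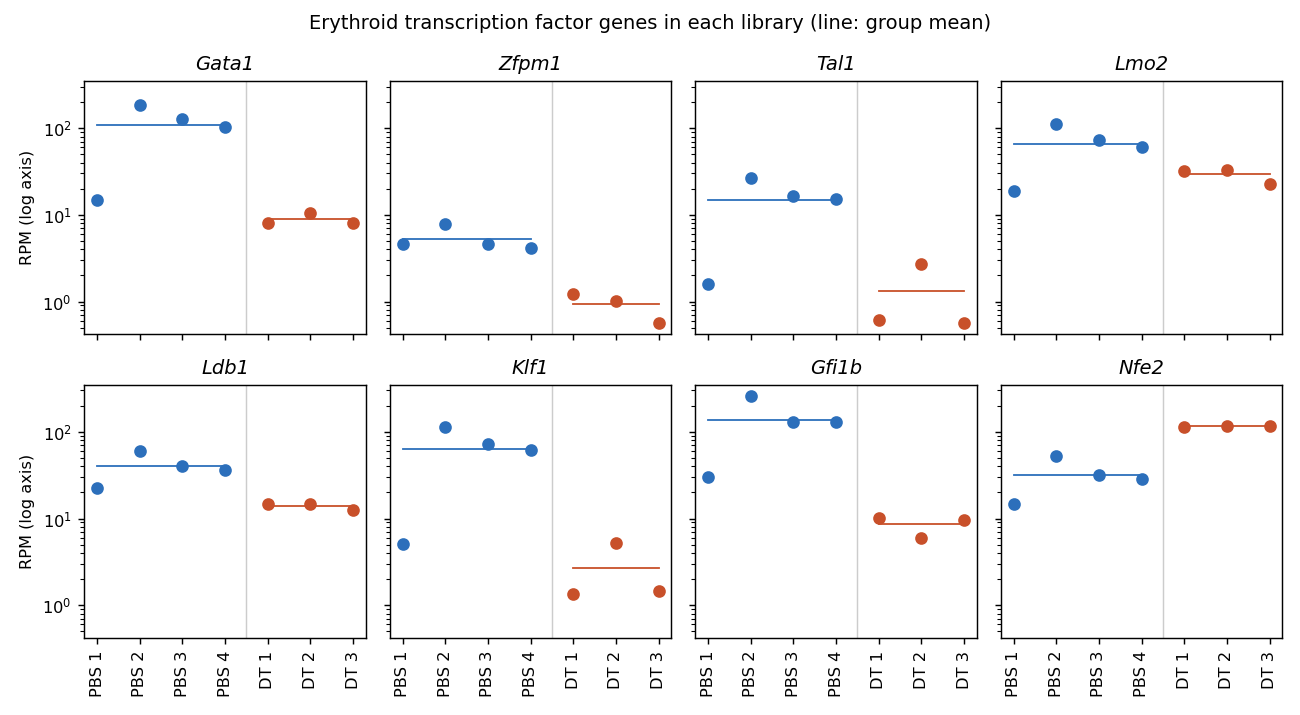
RPM of each of the 8 genes in the 4 PBS (blue) and 3 DT (orange) libraries, 1 panel per gene on a shared log axis, with a line at each group mean. PBS 1 is the lowest PBS library in every panel but that of Zfpm1, and Nfe2 is the gene with all DT points above all PBS points.

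Gata1, the lead factor of the lineage, was at 14.8, 183, 129 and 103 RPM in PBS 1 to 4 and at 8.14, 10.6 and 8.14 RPM in DT 1 to 3. PBS 1 stood near the DT libraries but above all 3 of them, and the groups did not overlap. Its PBS mean was 107 ± 70.3 RPM (SD, n = 4, as for every PBS mean below), against a DT mean of 8.96 ± 1.42 RPM (SD, n = 3). On the log2(RPM + 1) scale Gata1 fell by 3.0 with an SE of 0.69 (limma, adjusted p = 0.00950). Gata1 missed the threshold without the low-value filter (0.0665) and with voom on estimated reads (0.0525). Without PBS 1 the fall was 3.77 (limma, adjusted p = 2.72e-06).

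Klf1, which drives the late red cell programme, was at 5.15, 115, 73.1 and 61.2 RPM in PBS 1 to 4. In DT 1 to 3 it was at 1.36, 5.26 and 1.46 RPM. DT 2 was slightly above PBS 1, so the groups overlapped by this pair of libraries. The mean was 23.6-fold lower in DT, 2.69 ± 2.22 against 63.6 ± 45.3 RPM. Klf1 fell by 3.68 on the log2 scale (SE 0.87; limma, adjusted p = 0.0107). It missed the threshold without the low-value filter (0.0719) and with voom on estimated reads (0.126).

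Gfi1b, the repressor, was at 29.8, 257, 128 and 130 RPM in PBS 1 to 4 and at 10.2, 6.02 and 9.56 RPM in DT 1 to 3. Every PBS library was above every DT library, PBS 1 included. The mean went from 136 ± 93.2 to 8.60 ± 2.26 RPM, 15.9-fold lower. Gfi1b fell by 3.52 on the log2 scale (SE 0.58; limma, adjusted p = 0.00169) and was called lower under all 17 alternatives tried.

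The upstream sequences of these 3 genes are shown because each fell by 3.0 or more in the values above. They hold different arrangements of the letters that the erythroid factors bind. Capitals mark 3 kinds of letters, searched on both strands. The first are GATA letters, meaning NGATAN where the leading base is A or T and the last base is A or G. The second are CACCC-type letters, written CCNCNCCC, which GC boxes also match. The third are the letters CTG where GATA letters that end in A follow on the same strand with 7 or 8 bases between. Sequences are from RefSeq on GRCm38.p6, the assembly of mm10, read 5′ to 3′ on the gene's strand and ending just before its RefSeq start, or for Klf1 before the first exon in GENCODE vM21.
Gata1, chrX:7967911-7968160, minus strand: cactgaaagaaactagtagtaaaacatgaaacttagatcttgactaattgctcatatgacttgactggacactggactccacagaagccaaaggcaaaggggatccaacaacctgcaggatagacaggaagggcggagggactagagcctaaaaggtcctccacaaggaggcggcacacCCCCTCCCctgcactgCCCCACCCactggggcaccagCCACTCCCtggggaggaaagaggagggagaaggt
Klf1, chr8:84901732-84901927, plus strand: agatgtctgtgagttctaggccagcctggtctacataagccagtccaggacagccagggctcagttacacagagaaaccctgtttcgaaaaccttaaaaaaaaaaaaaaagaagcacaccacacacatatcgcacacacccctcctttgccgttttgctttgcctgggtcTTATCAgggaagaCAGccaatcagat
Gfi1b, chr2:28621983-28622232, minus strand: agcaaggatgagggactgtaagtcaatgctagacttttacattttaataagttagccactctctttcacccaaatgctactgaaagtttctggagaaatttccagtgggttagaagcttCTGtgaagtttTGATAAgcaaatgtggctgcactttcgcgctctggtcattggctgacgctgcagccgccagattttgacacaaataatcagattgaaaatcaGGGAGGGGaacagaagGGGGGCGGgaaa

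In the 250 bases before the RefSeq start, Klf1 held 1 GATA match, which begins 80 bases before the start and has CTG beside it, both on the minus strand. Gfi1b held 1 GATA match with CTG beside it and 2 CACCC-type matches. Gata1 held 3 CACCC-type matches and no GATA match in this window. Of 32851 windows of the same length before RefSeq starts, 26.5% held GATA letters, 45.9% CACCC-type letters and 0.846% CTG followed by GATA letters at the spacings searched. RefSeq windows were matched for 6 of the 8 genes, Nfe2 and Lmo2 not among them. Of the 9 windows of these 6 genes, 4 held GATA letters and 7 CACCC-type letters. A match is a run of letters and not a measured binding site.

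Tal1, the E-box protein of the complex, was at 1.60, 26.6, 16.7 and 15.1 RPM in PBS 1 to 4 and at 0.619, 2.73 and 0.566 RPM in DT 1 to 3. PBS 1 lay inside the DT range, and PBS 2 to 4 lay above it. The mean was 11.5-fold lower in DT, at 1.31 ± 1.24 against 15.0 ± 10.3 RPM. Tal1 fell by 2.5 on the log2 scale (SE 0.72; limma, adjusted p = 0.0259), the highest adjusted p of the 6 falls. Its adjusted p in limma was 0.0589 without PBS 2, 0.0648 without PBS 3, 0.0653 without PBS 4, 0.0879 without DT 1 and 0.0924 without DT 3. It was 0.000279 without PBS 1.

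Zfpm1, which encodes the GATA1 cofactor FOG1, had the lowest mean of the 8 per base of exon in each group. By single libraries Tal1 was lower than Zfpm1 per base of exon in PBS 1, DT 1 and DT 3. Zfpm1 was at 4.55, 7.90, 4.59 and 4.19 RPM in PBS 1 to 4 and at 1.21, 1.02 and 0.566 RPM in DT 1 to 3. PBS 1 was not set apart here, unlike for Gata1, and the groups did not overlap. The mean was 5.68-fold lower in DT. Zfpm1 fell by 1.68 on the log2 scale (SE 0.31; limma, adjusted p = 0.00310), a scale that understates changes at such levels. The predicted gene Gm20388 overlaps its span on the same strand without sharing exon bases.

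Ldb1, the adaptor that holds the complex together and joins enhancers to promoters, was at 22.3, 60.9, 40.8 and 36.4 RPM in PBS and in DT at 14.7, 14.6 and 12.7 RPM. The groups did not overlap, and the mean was 2.86-fold lower in DT, 14.0 ± 1.15 against 40.1 ± 15.9 RPM. Ldb1 fell by 1.37 on the log2 scale (SE 0.30; limma, adjusted p = 0.00702). It shares 177 exon bases with Pprc1 on the opposite strand, and strand use in counting is not given in the sources used here, so its level is uncertain to that extent.

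Lmo2, the bridge between GATA1 and TAL1, was at 18.9, 111, 72.7 and 60.0 RPM in PBS 1 to 4 and at 32.1, 33.3 and 23.0 RPM in DT 1 to 3. PBS 2 to 4 were above every DT library and PBS 1 was below every one. The means were 65.7 ± 38.0 and 29.5 ± 5.65 RPM. The log2 difference was -0.90, with a 95% interval from -1.98 to 0.17 (limma, adjusted p = 0.175). Without PBS 1 the difference was -1.40 and passed (limma, adjusted p = 0.00160), and it passed with sample weights too (0.0184).

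Nfe2 went the other way. It was at 14.7, 52.0, 31.5 and 28.8 RPM in PBS 1 to 4 and at 114, 116 and 117 RPM in DT 1 to 3, so every DT library was above every PBS library. The DT libraries lay within 1.03-fold of each other. Nfe2 rose 3.64-fold, or by 1.96 on the log2 scale (SE 0.33; limma, adjusted p = 0.00202), and was called higher under all 17 alternatives. All 13 neutrophil genes and 6 of 7 tested basophil and mast cell genes rose as well. The basophil and mast cell list summed to 23.0 to 203 RPM in PBS and 898 to 1827 RPM in DT. Of its genes only Cma1 and Tpsb2, mast cell proteases, were at 0 in every library. The part of these cells in the rise of Nfe2 was not tested.

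**Figure D2:**
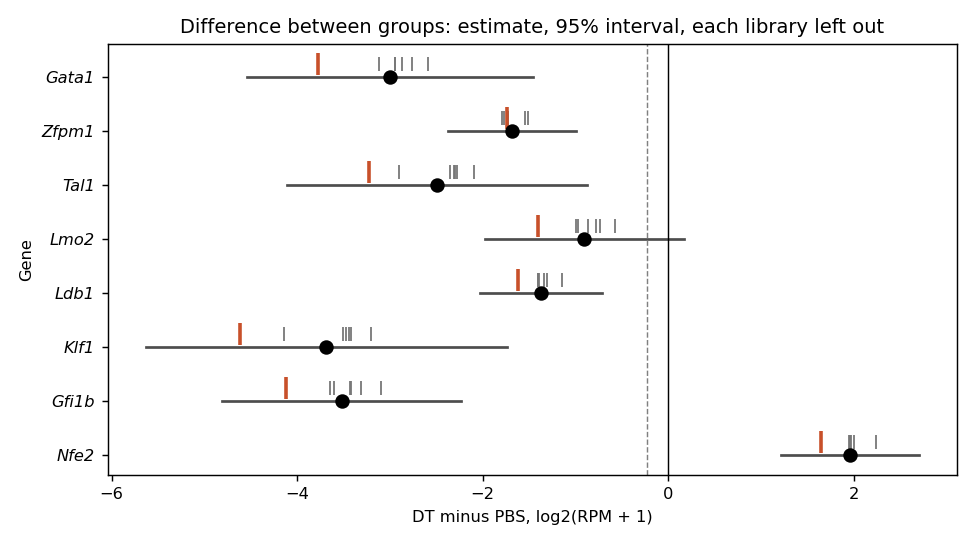
DT minus PBS in log2(RPM + 1) for the 8 genes: the dot is the limma estimate and the bar its 95% interval. Ticks above each bar leave out 1 library at a time, with the orange tick for PBS 1, and the dashed line is the median of all tested genes at -0.23. Leaving out PBS 1 moves Gata1 from -3.0 to -3.77 and Lmo2 from -0.90 to -1.40.

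From the lowest to the highest library the span was wider over the 4 PBS than over the 3 DT libraries for 7 of the 8 genes. Zfpm1 was the exception, spanning 1.88-fold in PBS and 2.14-fold in DT. More libraries tend to widen a span. The DT spans ran from 1.03-fold for Nfe2 to 3.86-fold for Klf1 and 4.83-fold for Tal1. Relative to the mean, the SD was larger in DT for Klf1 (82.4% against 71.2%), Tal1 (94.7% against 68.5%) and Zfpm1 (35.6% against 32.7%). PBS 2 was the highest PBS library for 8 of 8 genes, and PBS 1 the lowest for 7 of 8, the exception being Zfpm1, which was lowest in PBS 4. Over all tested genes PBS 2 was highest in 35.4%, PBS 1 lowest in 36.9% and both in 22.3%. From the lowest to the highest PBS library Klf1 spanned 22.3-fold, Tal1 16.6-fold, Gata1 12.4-fold and Gfi1b 8.62-fold. Lmo2 spanned 5.87-fold, Nfe2 3.54-fold and Ldb1 2.73-fold. Among PBS 2 to 4 alone the span was between 1.67-fold and 2.00-fold for every one of the 8. That was narrower than the DT span for Klf1, Tal1 and Zfpm1 and wider for the other genes.

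In log2(RPM + 1) the SD over the PBS libraries was 1.90 for Klf1, 1.59 for Gata1, 1.51 for Tal1 and 1.29 for Gfi1b, against a median of 0.36 over all tested genes. These lay at the 99.8, 99.5, 99.3 and 98.7 percentiles of all tested genes. The SD was 1.06 for Lmo2, 0.72 for Nfe2, 0.58 for Ldb1 and 0.36 for Zfpm1, the last at the 49.5 percentile. In DT the SD of Nfe2 was 0.02, at the 1.11 percentile, while Klf1 and Tal1 kept a wide spread there (0.79 and 0.71) because DT 2 was above DT 1 and DT 3.

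**Figure D3:**
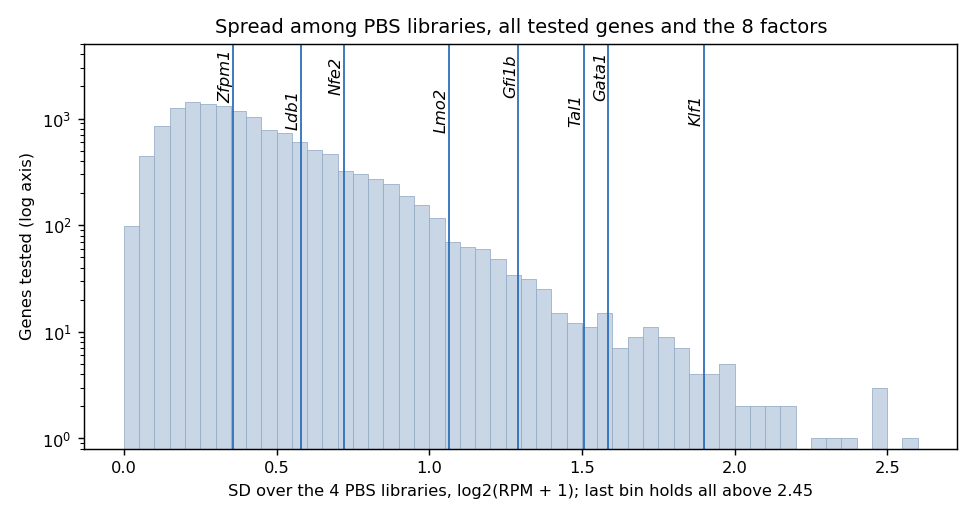
Histogram of the SD over the 4 PBS libraries in log2(RPM + 1) for all 14100 tested genes, on a log count axis, with a line for each of the 8 genes. Klf1, at 1.90, stands in the far tail, and Zfpm1, at 0.36, stands at the middle of all genes.

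Proportions to Gata1 were close together in PBS 2 to 4 for most of the genes, Gfi1b varying most. Per unit of Gata1 within the same library, Klf1 was at 0.627, 0.569 and 0.595 in PBS 2 to 4, Lmo2 at 0.606, 0.566 and 0.582, and Nfe2 at 0.283, 0.245 and 0.280. Gfi1b was at 1.40, 0.999 and 1.27 per unit of Gata1 in the same 3 libraries and at 2.01 in PBS 1. In PBS 1 the ratio of Klf1 was lower, at 0.348. The ratio of Tal1 was 0.108 in PBS 1 and 0.130 to 0.146 in PBS 2 to 4.

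Lmo2, Nfe2 and Ldb1 were lower in PBS 1 than in PBS 2 to 4, but by less than Gata1. The mean of PBS 2 to 4 was 9.33 times PBS 1 for Gata1, 4.30 times for Lmo2, 2.55 times for Nfe2, 2.06 times for Ldb1 and 1.22 times for Zfpm1. In PBS 1 the ratio to Gata1 was 1.51 for Ldb1, against 0.317 to 0.354 in PBS 2 to 4, and 0.307 for Zfpm1, against 0.0357 to 0.0430. Lmo2 was at 1.28 and Nfe2 at 0.992 per unit of Gata1 in PBS 1. In DT the ratio of Ldb1 was 1.38 to 1.81, around its value in PBS 1, and that of Lmo2 was 2.82 to 3.95. The ratio of Zfpm1 in DT was 0.0696 to 0.149, above PBS 2 to 4 and below PBS 1. The ratio of Nfe2 was 10.9 to 14.4, far above every PBS library. These ratios are descriptions of single libraries and were not tested between groups.

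**Figure D4:**
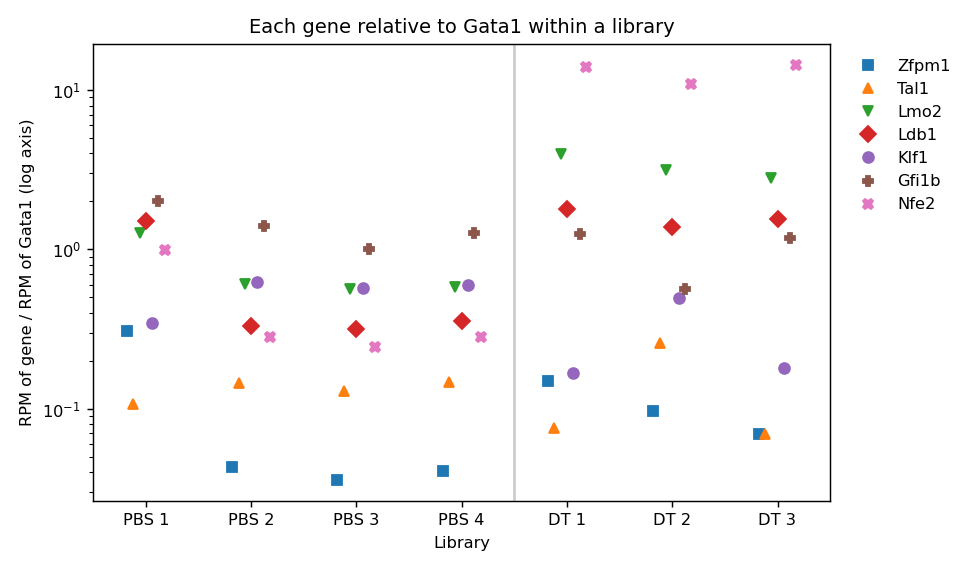
RPM of 7 of the genes divided by the RPM of Gata1 in the same library, on a log axis, with 1 symbol per gene. Gfi1b aside, at 0.999 to 1.40, the ratios lie close together in PBS 2 to 4. In PBS 1 and DT 1 to 3 Ldb1, Lmo2, Nfe2 and Zfpm1 stand higher, Nfe2 most of all at 10.9 to 14.4 in DT.

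To compare levels between genes, RPM was divided by the length of annotated exons in kb. In PBS the mean was highest for Gfi1b (74.6 ± 50.9 RPM per kb, SD, n = 4), followed by Gata1 (44.1 ± 28.8), Klf1 (41.6 ± 29.6) and Lmo2 (30.3 ± 17.6). Then came Nfe2 (10.6 ± 5.14), Ldb1 (8.71 ± 3.46), Tal1 (3.42 ± 2.34) and Zfpm1 (1.51 ± 0.50). Neighbours in this order differed by less than the larger of their SDs, except Lmo2 against Nfe2 and Ldb1 against Tal1. These SDs hold shifts between libraries that the genes share. Within single PBS libraries the order of neighbours was kept, except that in PBS 1 Lmo2 was above Klf1 and Zfpm1 above Tal1. In DT the order changed. Nfe2 led at 38.7 ± 0.57 RPM per kb (SD, n = 3), and Lmo2 followed at 13.6 ± 2.61. Gfi1b was at 4.70 ± 1.24, Gata1 at 3.68 ± 0.58, Ldb1 at 3.04 ± 0.25 and Klf1 at 1.76 ± 1.45. Tal1 and Zfpm1, at 0.298 ± 0.283 and 0.267 ± 0.0948, differed by less than their spread.

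Genes for proteins that bind these factors mostly moved less. Of 23 such genes 22 were tested, 12 fell, 1 rose and 9 did not pass, with a median log2 difference of -0.56. The count of falls was 7 without DT 3 and 7 under median-ratio scaling. Tcf3, which encodes the E-protein partner of TAL1, fell 2.58-fold, from 118 ± 7.66 to 45.7 ± 6.37 RPM (limma, adjusted p = 0.000138). Cbfa2t3, the corepressor ETO2 of the TAL1 complex, fell 2.04-fold, from 127 ± 12.5 to 62.1 ± 11.5 RPM. For these genes PBS 1 was not low: Tcf3 was at 129 RPM and Cbfa2t3 at 126 RPM there. Rcor1, part of the corepressor recruited by GFI1B, fell 2.16-fold. The 1 rise was Mafg, a small MAF partner of NFE2, at 15.2, 36.0, 20.5 and 20.1 RPM in PBS 1 to 4 and at 79.1, 95.2 and 76.1 RPM in DT 1 to 3. Mafg rose 3.64-fold (limma, adjusted p = 0.000641), like Nfe2. Mafk, the other small MAF gene tested, did not pass, with means of 25.6 RPM in PBS and 28.3 RPM in DT (limma, adjusted p = 0.569).

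Of 18 other nuclear regulators of red cell formation 9 fell, none rose and 9 did not pass in limma (0 higher and 11 lower at an unadjusted p under 0.05, and 0 higher with voom), with a median log2 difference of -0.70. Bcl11a, a repressor of embryonic globin, fell from 128 ± 35.5 to 36.3 ± 0.285 RPM (limma, adjusted p = 0.000382), and Sox6, which acts with it, fell from 6.82 ± 3.53 RPM. The fall of Sox6 missed the threshold with voom (adjusted p = 0.0591). Sox6 was at 0.0496 and 0.566 RPM in DT 1 and DT 3 and at 0 in DT 2. Myb, a factor of proliferating progenitors that lymphoid precursors share, fell 2.92-fold and was highest in PBS 1, at 485 RPM. Bcl11a and Ikzf1 are also genes of B cell precursors, and 8 of 10 B-lineage genes fell. That list summed to 7221 to 11300 RPM in PBS and 5255 to 6384 RPM in DT. The part of B-lineage cells in these falls was not tested.

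Close relatives of the 8 genes did not fall with them. Of 17 relatives 12 were tested, 5 rose and none fell in limma (0 lower at an unadjusted p under 0.05 and 0 with voom), with a median log2 difference of 0.36. The count of rises fell to 1 without DT 3 and to 3 without PBS 1, PBS 4, DT 1 or DT 2. It was also 3 without the filter and with a minimum mean of 5 RPM. Without PBS 1, Klf3 was called lower. Gata2, which precedes Gata1 in progenitors, was at 1.90, 17.7, 15.1 and 13.6 RPM in PBS 1 to 4 and at 9.85, 11.6 and 6.62 RPM in DT, and its log2 difference of -0.07 changed sign under median-ratio scaling. Gfi1, the myeloid and lymphoid relative of Gfi1b, was at 5.18 ± 1.08 and 7.64 ± 2.76 RPM (limma, adjusted p = 0.277). Lyl1, the relative of Tal1, was at 39.0 ± 3.88 and 47.5 ± 5.02 RPM (limma, adjusted p = 0.203) and passed under median-ratio scaling (0.0291). Nfe2l2 was at 124 ± 28.0 and 142 ± 11.0 RPM. Klf6, a widely expressed and inducible relative of Klf1, rose 5.39-fold (limma, adjusted p = 0.000128). Zfpm2 was at 0 in all 7 libraries, and Ldb2 reached 0.254 RPM at most.

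Red cell genes, many of them known targets of GATA1 or KLF1, moved both ways. Of 36 listed, 35 were tested, 14 fell, 4 rose and 17 did not pass, with a median log2 difference of -1.68. The falls numbered 25 without PBS 1 and 24 with sample weights, but 7 without the filter and 5 with voom. By group means Rhd went from 162 RPM in PBS to 3.96 RPM in DT, Car1 from 2160 to 75.9 RPM and Car2 from 3159 to 180 RPM. Tfrc, the transferrin receptor, had the smallest log2 fall of the 14. It fell 2.43-fold, from 128 ± 46.0 to 52.5 ± 4.58 RPM (limma, adjusted p = 0.00390). The rises were Alas2, Hbb-bs, Hba-a2 and Hba-a1, genes of heme and globin synthesis, the globin pairs being near-identical copies whose reads are hard to separate. Hbb-bs was at 133, 387, 543 and 216 RPM in PBS 1 to 4 and at 825, 1109 and 1040 RPM in DT 1 to 3. In PBS 31 of the 35 tested genes were lowest in PBS 1 and 27 highest in PBS 2, the order seen for the factors. The list summed to 1780 RPM in PBS 1 and 8163 to 13056 RPM in PBS 2 to 4.

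**Figure D5:**
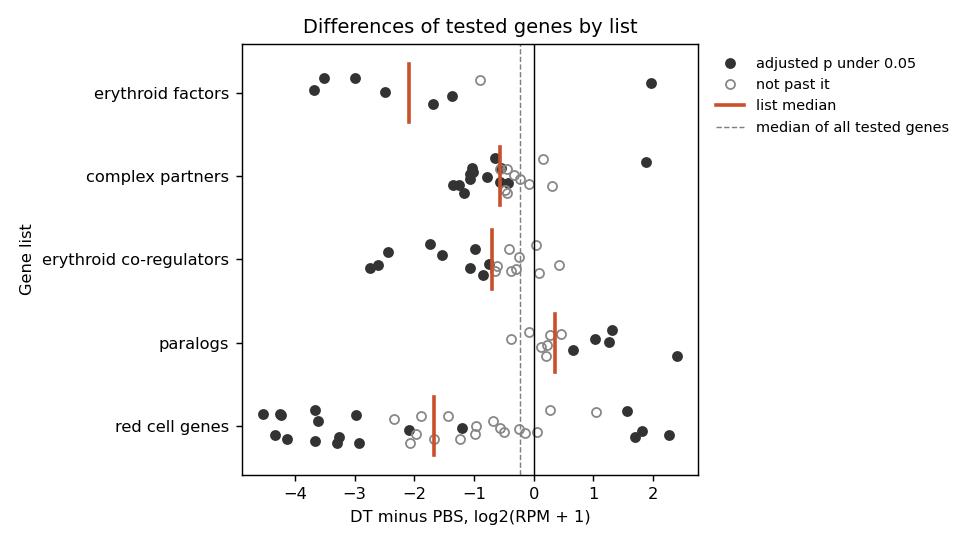
DT minus PBS in log2(RPM + 1) for every tested gene of the 5 lists, filled where the adjusted p was under 0.05, with an orange bar at each list's median and a dashed line at the median of all tested genes. The factors and red cell genes reach furthest down, with medians of -2.09 and -1.68, and the relatives lie around 0.36.

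Markers of other cells that use these factors were followed in the same libraries. Of 11 tested megakaryocyte genes 0 passed in limma, 1 being lower and 0 higher at an unadjusted p under 0.05, and their sum was 69.5 to 275 RPM in PBS and 66.7 to 191 RPM in DT. It was highest in PBS 2 within PBS and in DT 2 within DT, and in PBS 1, at 87.0 RPM, it was above PBS 3. Of 6 tested eosinophil genes 3 rose and 3 did not pass, and their sum was 13.8 to 54.5 RPM in PBS and 223 to 312 RPM in DT. Of 8 tested progenitor genes 3 rose and 5 did not pass. Cd34, a progenitor surface protein, was at 21.8 RPM in PBS 1 and 4.60 to 7.24 RPM in PBS 2 to 4. It was 1 of the 3 rises, with a DT mean of 44.7 RPM (limma, adjusted p = 0.00309). Kit, the stem cell factor receptor of progenitors, was at 14.4 RPM in PBS 1 and 72.9 to 86.1 RPM in PBS 2 to 4. The part of these cells in the values of the 8 genes was not tested.

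Zbtb46 itself was at 1.54, 17.5, 10.4 and 7.45 RPM in PBS 1 to 4 and at 0.0248, 3.12 and 1.56 RPM in DT 1 to 3. Its order in PBS was that of Gata1, Klf1, Tal1, Lmo2, Ldb1 and also Nfe2, which rose in DT. PBS 1 was lowest and PBS 2 highest in 22.3% of all tested genes. Whether toxin acted on erythroid cells that carry the receptor was not tested.

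The genes most like Klf1, Gata1 and Lmo2 were found by the root mean square distance between log2(RPM + 1) profiles over the 7 libraries, each centred on its own mean. Klf1 was nearest to Tspo2, a red cell translocator protein gene, at a distance of 0.12, then to Mt2, a metallothionein (0.24), Atp7b, a copper transporter (0.28), Sh2d4a (0.32) and Atp1b2, a sodium pump subunit (0.32). Gata1 was nearest to Mboat2, a phospholipid acyltransferase (0.14), Fam132a (0.17), Gstm5 (0.20), Ces2g (0.25) and Nxpe2 (0.27). Adding 1 RPM shrinks the changes of scarce genes, so a small distance is not an equal fold. Mboat2 was at 0.0496 and 0.0714 RPM in DT 1 and DT 2, and lower still in DT 3. With voom its difference was -7.64, against -3.16 for Gata1. Lmo2 was nearest to Slc7a5, an amino acid transporter (0.12), Sssca1 (0.17), Klf9 (0.18), Ank (0.18) and Btaf1 (0.19). Among the 8 genes themselves Gata1 was nearest to Tal1, at 0.38, and farthest from Nfe2, at 2.53. Zfpm1 was nearest to Ldb1, at 0.31, on a scale that shrinks the fall of the scarcer Zfpm1. With voom the differences were -2.57 for Zfpm1 and -1.46 for Ldb1.

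In mm10 with GENCODE vM21, all 8 are protein-coding genes. Gata1 lies on chromosome X at 7959260 to 7978071, Klf1 on chromosome 8 at 84901928 to 84905291 and Zfpm1 on chromosome 8 at 122282141 to 122337251. Gfi1b lies on chromosome 2 at 28609450 to 28621982 and Lmo2 on the same chromosome at 103957986 to 103981878. Tal1 lies on chromosome 4 at 115056426 to 115071755, Nfe2 on chromosome 15 at 103248212 to 103258403 and Ldb1 on chromosome 19 at 46031570 to 46045214.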

How the data were processed

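Each library started from 1 ng of RNA, was amplified over 14 cycles with a SMARTer kit and was read as single 50-base reads, per the labels' protocols. STAR 2.5.3a, Partek and mm10 are named per the submitters' processing notes; how reads were assigned to genes is not given in the sources used here. In the 1 table the authors deposited, named FPKM, values are RPM plus 0.0001: in each library the most frequent value above that offset is shared by 1025 to 1202 genes, which a division by length would prevent. That value was taken as 1 read. Only 60.8% to 62.8% of values up to 20 such steps lay within 0.02 of a whole number, so no count model was the main test, whereas 50 of the 56 values of the 8 genes lay within 0.05. Amplified copies are not independent molecules. A level of 0 means the offset value, which allows up to 3 reads (0.0585 to 0.0904 RPM, counting error only).

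DT was compared with PBS by limma 3.58.1 (R 4.3.3, with trend) on log2(RPM + 1) of the 14100 genes whose mean reached 1 RPM, two-sided, Benjamini-Hochberg threshold 0.05. Folds are ratios of mean RPM. On simulated DT against PBS data with 14015 genes tested 32.7% of 101 genes set to a 2-fold change were called and 77.4% of 93 set to 4-fold, with 1.87% of calls false. Each gene was simulated with its own independent normal noise. Deviations that many genes share within a library, as in PBS 1 and PBS 2, were thus left out of these rates. Alternatives covered pseudocount, filter, scaling, trend, sample weights, replicate block, voom on estimated reads and leaving out each library. The members and gene lists were chosen with earlier results of these data known. From each list other than the 8, the rule allows up to 6 genes with the smallest p, the closest relatives and the 2 most abundant markers. Hbb-bs, Hba-a1, Hba-a2, Mafk, Cma1, Tpsb2, Zbtb46, Gm20388 and Pprc1 were named after their values were seen. P-values measure the spread between these samples, which may be technical in part. Same-numbered PBS and DT samples had deviations from their group means that correlated at 0.04, 0.05 and 0.01 across genes, so numbers were not treated as pairs.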

Additional observations from a re-analysis of the deposited data

Results flagged for a closer look

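A value far from the rest of its group was looked for in the 4 PBS libraries of 60 named genes, and chance alone sets about 1 in 20 groups apart. Zfpm1 in PBS 2, at 7.90 RPM, lay apart from the other PBS libraries, with a gap of 0.893 of the group's range. Tfrc, the transferrin receptor, lay apart in PBS 2 too, at 196 RPM against 95.9 to 110 RPM in the others (0.858). Cd34 lay apart in PBS 1, at 21.8 RPM (0.846). The low values of the factors in PBS 1 did not meet this rule in RPM.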

How the results depend on the processing

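Over 17 alternatives all 8 factors kept their direction in each of 135 recomputed differences, and 122 of these stayed on their side of the threshold. Gfi1b, Nfe2, Zfpm1 and Ldb1 did so under every alternative in which they were tested (Zfpm1 was under the minimum mean of 5 RPM). Without a filter, Klf1 (-3.68), Gata1 (-3.0, adjusted p = 0.0665) and Tal1 (-2.5) missed the threshold in limma, 3 factors, 7 red cell genes and 1689 of all genes were lower, and 3 relatives and 1 red cell gene higher. With voom, Klf1 (-4.29), Gata1 (-3.16, adjusted p = 0.0525) and Tal1 (-3.47, adjusted p = 0.156) missed it, and 3 factors and 5 red cell genes were lower. Lmo2 passed with sample weights (-1.07), where 24 red cell genes were lower. Median-ratio scaling moved the median of all genes to -0.01 and left 1268 genes and 7 binding partners lower. A minimum mean of 5 RPM left 3 relatives higher. Without a single library, Tal1 ran from -3.23 to -2.09, Lmo2 from -1.40 to -0.57, the factors lower from 5 to 7, all genes lower from 1208 (without DT 3; 1500 without DT 1 and 1609 without DT 2) to 3628, binding partners lower from 7 to 13, relatives higher from 1 to 4 and lower from 0 to 1, and red cell genes lower from 11 to 25. With the replicate block, which rests on shared numbers only, 1574 genes were lower, Gata1 fell by 2.87 and the calls of the 8 factors did not change. Gata2 reversed under median-ratio scaling (0.15), the block (0.081) and without PBS 2, PBS 3, PBS 4 or DT 3, its values without single libraries running from -0.70 to 0.20. Pf4, a platelet chemokine, reversed under median-ratio scaling (0.045) and without PBS 2 (0.13) or DT 3 (0.11), running from -0.69 to 0.13. The causes were not tested. Depth limits the low values: Tal1 stood for 25 reads in DT 1.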
